A study of Mus musculus with 10 samples.

Results

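Convergent β chain clonotypes, in which the same T cell receptor β protein was written in 2 or more nucleotide versions, were collected from 9 libraries of sorted mouse T cells. The listed clonotypes of these libraries were pooled, and each combination of V segment, J segment and amino acid CDR3 was kept if its CDR3 began with cysteine, ended with phenylalanine and had at least 2 distinct nucleotide CDR3 sequences over all 9 libraries. The CDR3 is the loop of the β chain that spans the joined segments and meets the presented peptide. This rule found 1251 convergent combinations among 27100, or 4.62%. Of these, 1144 had exactly 2 versions, 87 had 3, 14 had 4, 5 had 5 and 1 had 6, while the other 25849 combinations had 1 version. The members were thus chosen by the number of listed nucleotide versions, and that number is given as a description.

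The study sequenced T cell receptor transcripts of T cells sorted from ear skin and peripheral lymph node, after the RNA was copied by RACE and amplified by PCR. The Tcrd-/- mice (B6.129P2-Tcrdtm1Mom/J) lack the receptor δ chain and hence all γδ T cells, and all β libraries but 1 came from them. In them the gates were living CD45+CD3hiTCRβhi epidermal cells (labelled DETC, 3 libraries: epidermal A, B and C), CD45+CD3+TCRβ+ dermal cells (2 libraries: dermal A and B), the same gate with CD103+ or CD103hi cells of the dermis (1 library each), and CD45+CD3+TCRβ+ cells of the lymph node (1 library). The remaining β library held CD45+CD3+TCRβ+ dermal cells of wild-type C57BL/6-N/Crl mice (dermal WT), and a γ chain library held their epidermal γδ T cells. CD103 is the integrin αE chain of many epithelial T cells. Each library was 1 pool of cells from 5 to 18 animals whose age was not given, so versions within a library may come from the same animal or from different ones. No gene outside the receptor locus was measured, so the labelled cell types and the Tcrd genotype could not be checked against markers. Read counts also cannot tell more cells from more receptor RNA per cell.

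A β chain gene is assembled in the thymus from a V, a D and a J segment. Exonucleases trim the segment ends and terminal deoxynucleotidyl transferase adds bases without a template, so the junction differs from cell to cell. Because most amino acids have several codons, different rearrangements can encode the same protein, which is known as convergent recombination. Dendritic epidermal T cells of wild-type mice are γδ T cells whose receptors carry few added bases.

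Combinations are named here by their segments. The one with the most versions used TRBV13-2 and TRBJ2-7 and is shown because its 6 versions differ only in the wobble bases of the alanine and glycine codons between the germline ends. Below it stands the germline end of each segment from the mouse annotation (GRCm38). Capitals mark the bases that differ between the versions of a combination.
version 1: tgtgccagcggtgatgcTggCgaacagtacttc
version 2: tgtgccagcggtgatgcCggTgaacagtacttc
version 3: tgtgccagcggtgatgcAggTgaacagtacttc
version 4: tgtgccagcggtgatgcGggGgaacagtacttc
version 5: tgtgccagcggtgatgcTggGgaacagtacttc
version 6: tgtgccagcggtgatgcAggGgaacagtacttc
TRBV13-2, germline: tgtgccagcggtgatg
TRBJ2-7, germline: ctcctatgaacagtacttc
All 6 versions were found in the lymph node library alone, with 4, 3, 2, 2, 2 and 1 reads. The deposited segment positions assigned them no D segment and between 2 and 4 inserted bases. TRBV13-2 lies on chromosome 6 from 41121396 to 41121832, and TRBJ2-7 from 41543810 to 41543856.

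A TRBV13-1 and TRBJ2-7 combination had 5 versions and is shown with both germline D segments, which share most of their bases.
version 1: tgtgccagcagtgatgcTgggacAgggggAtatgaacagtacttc
version 2: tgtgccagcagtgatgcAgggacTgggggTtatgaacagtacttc
version 3: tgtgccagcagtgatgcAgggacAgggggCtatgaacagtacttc
version 4: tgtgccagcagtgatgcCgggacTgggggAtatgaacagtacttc
version 5: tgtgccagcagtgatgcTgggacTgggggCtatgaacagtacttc
TRBD1, germline: gggacagggggc
TRBD2, germline: gggactgggggggc
Versions 1 and 3 were assigned TRBD1 and the other 3 versions TRBD2. The lymph node library held 4, 3, 2, 1 and 1 reads of versions 1 to 5, and epidermal A held 1 read of version 1. The other 4 combinations with 5 versions used TRBV3 with TRBJ2-7, TRBV29 with TRBJ1-1, TRBV13-1 with TRBJ2-3, and TRBV13-2 with TRBJ2-3. All of their versions lay in the lymph node library, with between 1 and 14 reads each.

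In skin no combination had more than 3 versions. A TRBV13-3 and TRBJ1-1 combination was found in 4 libraries, the most of any member and a number reached by only 2 others, and is shown because 2 of its versions were abundant in several pools.
version 1: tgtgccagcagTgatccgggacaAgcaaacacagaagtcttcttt
version 2: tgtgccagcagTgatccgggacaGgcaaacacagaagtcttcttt
version 3: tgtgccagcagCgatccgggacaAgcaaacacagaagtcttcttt
TRBV13-3, germline: tgtgccagcagtgatg
TRBJ1-1, germline: caaacacagaagtcttcttt
Version 1 had 639 reads in dermal A, 568 in the CD103+ and 49 in the CD103hi library. Version 2, which differs from it by 1 base of the glutamine codon, had 225, 606 and 138 reads in the same libraries and 5 in the lymph node. Version 1 led in dermal A and version 2 in both CD103 sorts. Version 3, which differs from version 1 by 1 base of the V segment, had 3 reads in the CD103hi library. By the style of their names the libraries fall into 3 sets, which join the lymph node with dermal A and epidermal A, both CD103 sorts with epidermal B, and dermal WT with dermal B, epidermal C and the γ chain library. What the names stand for is not given. Versions 1 and 2 were thus present in libraries of 2 sets.

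**Figure D1:**
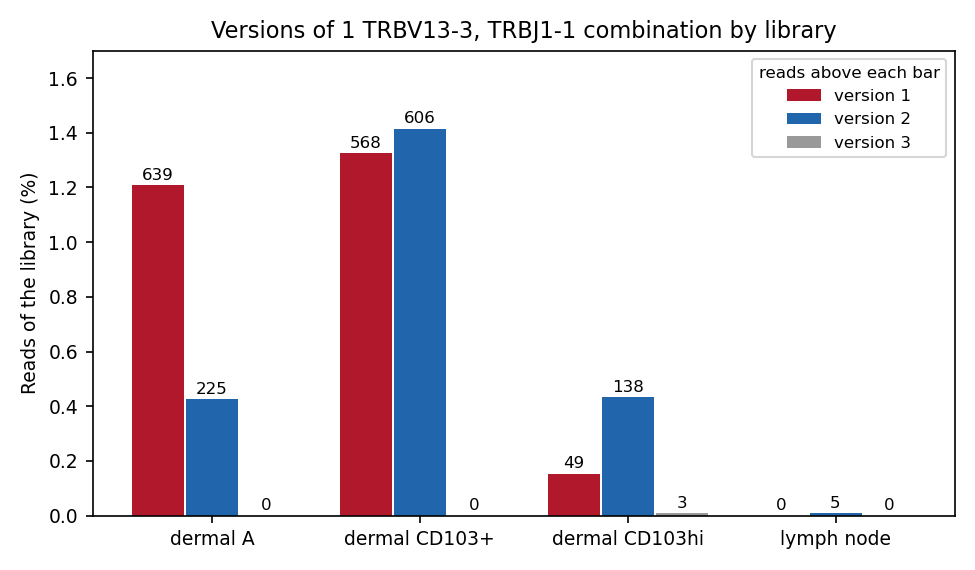
Reads of the 3 nucleotide versions of the TRBV13-3 and TRBJ1-1 combination as a percentage of all reads of each library that held it, with the read count above each bar (1 library per bar, no error). Versions 1 and 2 both reached over 100 reads in dermal A and the CD103+ library, and only version 2 was listed in the lymph node.

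A TRBV16 and TRBJ2-7 combination is shown because its versions used different D segments, with no inserted base by the deposited positions.
version 1: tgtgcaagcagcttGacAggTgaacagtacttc
version 2: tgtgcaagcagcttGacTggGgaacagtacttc
version 3: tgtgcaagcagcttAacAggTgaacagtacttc
TRBV16, germline: tgtgcaagcagcttaga
Versions 1 and 2 had 593 and 325 reads in the CD103+ library, with TRBD1 and TRBD2 assigned. Version 3, with TRBD1, had 5 reads in dermal A and 10 in the lymph node. Skin of different library sets therefore held this protein in different versions. A TRBV20 and TRBJ2-2 combination was the member with the most reads in dermal WT, with 3751 reads of version 1, 549 of version 2 and 1 of version 3, and epidermal C held 1 read of version 1.
version 1: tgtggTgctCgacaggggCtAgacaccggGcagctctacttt
version 2: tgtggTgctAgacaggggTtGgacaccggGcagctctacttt
version 3: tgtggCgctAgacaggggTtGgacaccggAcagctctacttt
A TRBV15 and TRBJ2-7 combination shows versions that differ only inside germline segment ends. Its 3 versions had 160, 17 and 1 reads, all in the CD103+ library.
version 1: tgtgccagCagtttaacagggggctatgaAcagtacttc
version 2: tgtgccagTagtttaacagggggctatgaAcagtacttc
version 3: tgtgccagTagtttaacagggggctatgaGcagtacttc
TRBV15, germline: tgtgccagcagtttagc
The version with the most reads carried the germline base at both differing positions. The remaining combinations with 3 versions in skin that the naming rule picked were a TRBV13-3 and TRBJ2-1 combination, with 1044, 13 and 2 reads in epidermal B, and a TRBV13-2 and TRBJ2-7 combination, with 9, 2 and 1 reads in dermal WT. The first of these also had 1 read in CD103+ and the second 3 reads in the lymph node, each of its larger version.

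Most convergent combinations had several versions in the same library, and for 1037 of them this was the lymph node library. In skin libraries another version lay in the same library for 137 of 302 entries of members. Of the 1251 convergent combinations, 1170 had 2 or more versions in 1 library, 98 occurred in lymph node and skin, and 33 occurred at 2 or more skin sites with 2 or more versions between them, and these counts overlap. The skin sites are Tcrd-/- epidermis, Tcrd-/- dermis with its CD103 sorts, and wild-type dermis. The lymph node library alone held 1012 of the members, skin alone 141, and both held 98. The lymph node library listed 26693 clonotypes and a skin library 72 to 702, although its 52498 reads lay within the skin range of 31823 to 189162. A clonotype with 0 reads could still make up to 0.00943% of the shallowest library and up to 0.00159% of the deepest, taking 3 reads as the upper limit for a count of 0, a limit that covers the counting of reads only.

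Combinations found in both lymph node and skin were often convergent. Of the 164 such combinations, 98 had several versions, or 59.8% (exact 95% interval 51.8 to 67.3%). The share was 4.06% of 24908 combinations in lymph node only and 6.95% of 2028 in skin only. These intervals cover counting error only, since amplified reads that carry no molecular identifiers do not count molecules, and a combination found in 2 places had more chances to be seen in a second version. A nucleotide version was shared by lymph node and skin for 87 of the 164 combinations, 66 of which had 1 version in all. For the other 77, lymph node and skin held the same protein in different versions only.

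That split differed between the skin libraries. Epidermal A and dermal A, which belong to the library set of the lymph node, had 50 and 33 combinations in common with it, and 38 and 24 of these by the same version. The 6 skin libraries of the other sets had between 4 and 31 in common with it. There the same version was found for 12 of 28 in epidermal B, 11 of 24 in CD103+, 10 of 20 in CD103hi, 10 of 31 in dermal WT, 2 of 9 in epidermal C and 0 of 4 in dermal B. Sharing by the same version was therefore more frequent within the set of the lymph node, and the part of the library set in this was not tested.

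Between skin libraries, 206 combinations recurred, and 44 of them had more than 1 version in skin. Only 23 recurred in skin libraries of 2 or more library sets, of which 13 had several versions in skin, and for 10 of these no version was shared between sets. All 13 differed in the junction. For most of the 10, the set with fewer reads held 5 or fewer, and the range was 1 to 216. The examples that follow lie above those low counts. Examples, chosen after their values were seen, were a TRBV13-2 and TRBJ2-4 combination, with 576 reads of 1 version in CD103+ and 48 of another in dermal WT, and a TRBV3 and TRBJ2-2 combination, with 122 and 211 reads in the same libraries. Another TRBV3 and TRBJ2-2 combination had 166 reads of 1 version in epidermal A and 83 of another in epidermal B.

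Members found in many libraries were often large in only 1 of them. A TRBV1 and TRBJ2-7 combination had 997 reads in dermal WT, 3 in epidermal C and 1 in dermal B of 1 version, and the lymph node had 1 read of another. A TRBV13-2 and TRBJ1-3 combination had 706 reads of version 1 in dermal WT and 1 each in epidermal C and lymph node, and 1 read of version 2 in CD103hi. A TRBV13-1 and TRBJ2-5 combination had 1674 reads of 1 version in epidermal A, 9 of another in the lymph node and 1 of yet another in dermal A. A TRBV5 and TRBJ2-5 combination was large in skin in 2 versions, which differ by 1 base of the valine codon. They are shown because each was large in another genotype and library set.
version 1: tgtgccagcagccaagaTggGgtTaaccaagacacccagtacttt
version 2: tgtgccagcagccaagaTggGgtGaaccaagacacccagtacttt
version 3: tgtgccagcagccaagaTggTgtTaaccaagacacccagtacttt
version 4: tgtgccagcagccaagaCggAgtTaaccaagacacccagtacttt
Version 1 had 950 reads in dermal WT and 3 in the lymph node, and version 2 had 216 reads in CD103+. Versions 3 and 4 had 2 and 1 reads in the lymph node.

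The member with the most reads in a library often owed its membership to a rare version elsewhere. A TRBV29 and TRBJ2-1 combination had 5254 reads in epidermal C, and its other version was 1 read in dermal WT. In dermal B a TRBV1 and TRBJ1-2 combination had 2156 reads, with 1 read of its other version in the lymph node. In epidermal A a TRBV26 and TRBJ1-3 combination had 2089 reads, and 4 in dermal A, where 1 read showed its other version. In dermal A a TRBV29 and TRBJ2-5 combination had 1559 reads, with 2 further versions with 1 read each in the lymph node. In CD103hi a TRBV20 and TRBJ2-5 combination had 715 and 30 reads of its versions, which differ at the last base of the CDR3. Over the 302 entries of members in skin libraries, another version was in the same library for 137, in another skin library but not in the same for 64, and in the lymph node only for 101.

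Versions mostly differed by a single base. Among all 1554 pairs of versions of the same combination, 986 (63.4%) differed by 1 base, 404 by 2, 128 by 3 and 36 by more, up to 7. Of the 2330 differing bases, 92% were the third base of a codon, where most changes that keep the protein lie. A base counted as germline V or J if, in both versions, it lay within the deposited segment position and the coding end in the annotation. Otherwise it counted as junction. By this measure 1064 pairs (68.5%) differed in the junction and 490 only in the germline V or J part. In the junction 55.1% of differing bases were transitions (exchanges of A with G or C with T), against 86.2% in V and 92.5% in J. The same D segment was assigned to both versions in 99.2% of the pairs that differed in germline parts only and in 73.1% of the junction pairs.

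Where the difference lay depended on where the versions were found. Of 100 pairs split between lymph node and skin, 95% differed in the junction, as did 71.4% of 14 pairs split between skin libraries. The share was 69.6% of 1285 pairs found together in the lymph node and 41.3% of 155 pairs found together in a skin library. Counted by member, a junction difference was present in 90 of 98 combinations in lymph node and skin, 680 of 1012 in lymph node only and 62 of 141 in skin only. Pairs from 1 library share their pool and its PCR, so these shares are descriptions without a test.

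**Figure D2:**
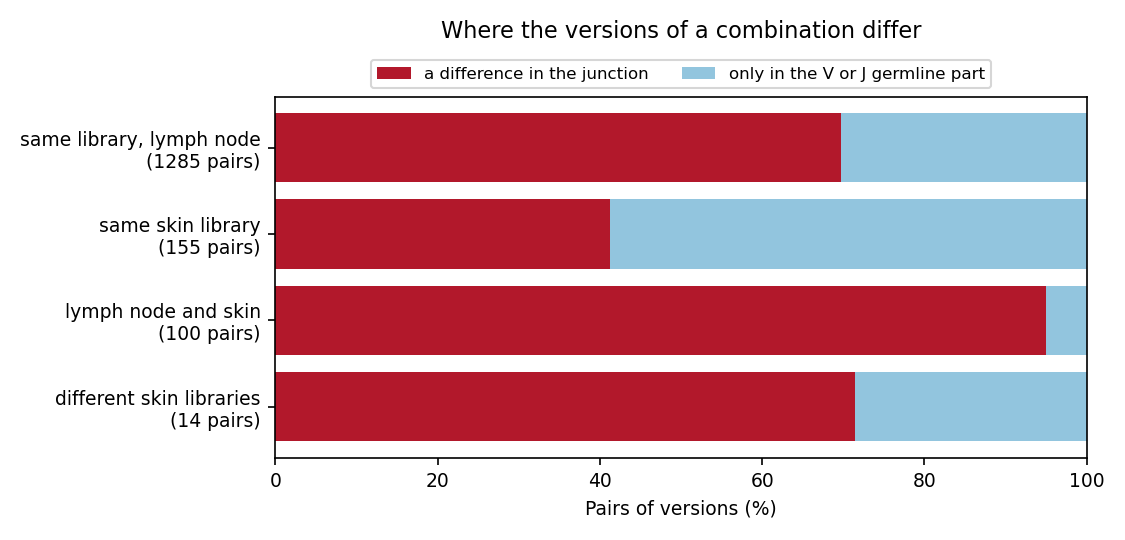
Share of pairs of versions (percent) that differ in the junction or only in the germline V or J part, by where the 2 versions were found, with the number of pairs. Pairs split between lymph node and skin differed in the junction in 95% of cases, and pairs within a skin library in 41.3%.

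Within skin libraries the smaller version was usually a trace beside the larger. The smaller version had a median of 1 read in both classes. Its median share of the larger version's reads was 6.35% for the 64 junction pairs and 5.88% for the 91 germline-only pairs. These medians mix unlike pairs. For pairs 1 base apart the share was 8.60% (28 junction pairs) and 6.45% (69 germline-only pairs). For pairs 2 bases apart it was 0.444% (31 pairs) and 0.385% (22 pairs). The smaller version was a single read in 36 junction and 51 germline-only pairs. The smaller version had at least 10 reads in 11 junction pairs and 19 germline-only pairs. In the lymph node, where the larger version had a median of 3 and 2.5 reads, the median smaller version also had 1 read.

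Where versions differed in a V or J part, the larger version usually carried the reference base. Within skin libraries, pairs of both classes held 142 differing bases in V or J parts. The reference base was in the version with more reads at 131 of these (92.3%), in versions of equal reads at 10, in neither at 1 and in the version with fewer reads at 0. In the lymph node the corresponding bases were 547, with 341 in the version with more reads, 147 at equal reads, 53 in the version with fewer reads and 6 in neither. Whether such versions were changes made in copying, amplification or sequencing was not tested. Counting only junction differences, 832 of the 1251 combinations had 2 or more versions. A base counted as junction if the assigned segment of either version stopped short of it, so changes near a segment end are included. The 832 can therefore also hold versions of that kind, which was not tested.

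**Figure D3:**
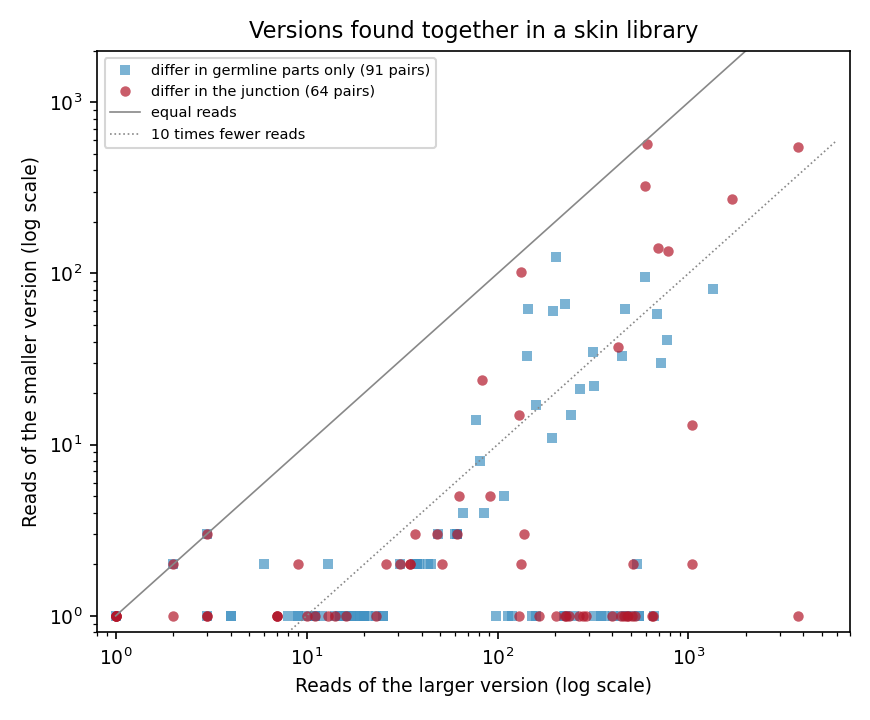
Reads of the larger (horizontal, log scale) and smaller version (vertical, log scale) of each pair found together in a skin library, for 64 junction and 91 germline-only pairs. The lines mark equal reads and 10 times fewer reads, and most smaller versions lie at 1 read.

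Glycine, alanine and serine led the junction codons that differed. Glycine made up 553 of them (35.8%), close to its 36.7% of the junction residues of the members (31.3% in combinations with 1 version). Alanine followed with 204 codons, 13.2% against 8.06% of the members' junction residues, and serine with 144, 9.33% against 5.31%. Of the amino acids with as many codons as serine, arginine made up 7.26% against 7.31% and leucine 7.19% against 5.27%. In V parts the most frequent differing codon was that of cysteine, with 115 codons (30.5%). In J parts it was that of phenylalanine, with 62 codons (18.6%). By the rule every kept CDR3 begins with cysteine and ends with phenylalanine, and no background share was computed for V or J parts.

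Convergent clonotypes carried fewer inserted bases and shorter CDR3s than single-version clonotypes in 7 of 9 libraries, but neither difference passed the threshold. Inserted bases are CDR3 bases that the deposited positions assign to no segment. Within each library the mean over clonotypes of convergent combinations was set against the mean over those with 1 version, and the 9 differences were tested by an exact two-sided sign-flip permutation, with Benjamini-Hochberg adjustment over 4 measures and a threshold of 0.05. None of the 4 passed (0% called), and 2 had an unadjusted p under 0.05. The versions that chose the members come from the same clonotypes as these measures. They were pooled over all 9 libraries, so membership in 1 library can rest on a version in another. The libraries also differ in tissue, genotype, sort and library set, and each is 1 pool. The p-values therefore describe only the spread of the differences between these libraries.

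Mean inserted bases were 1.93 ± 0.512 (SD, n = 9 libraries) in convergent and 2.57 ± 0.796 in single-version clonotypes, a difference of -0.640 with p = 0.0430 and adjusted p = 0.0859 by the exact sign-flip permutation test. Convergent and single-version means were 1.55 and 2.92 in epidermal A, 1.76 and 1.68 in epidermal B and 1.81 and 2.09 in epidermal C. They were 1.27 and 4.28 in dermal A, 2.89 and 2.48 in dermal B, 2.08 and 2.39 in CD103+, 1.42 and 1.68 in CD103hi, 2.24 and 2.67 in dermal WT and 2.35 and 2.94 in the lymph node. The largest gap was that of dermal A, with 26 convergent clonotypes, and dermal B and epidermal B went the other way. Without dermal A the difference was -0.343. Counting from the coding ends of the annotation, which some deposited positions pass, the means were 2.53 and 3.26. The difference was then -0.727 and its adjusted p = 0.0469 by the same exact test. Weighted by reads the difference by the deposited positions was -0.107, with unadjusted p = 0.668 by the exact permutation test.

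In the lymph node, which had 2255 convergent clonotypes, 25.2% of them had no inserted base, against 16.7% of the single-version clonotypes. Over the 9 libraries this share was 33.9% ± 11.2 against 30.6% ± 13.7, higher in 5 of 9, with adjusted p = 0.441 by the exact permutation test. Counting from the coding ends of the annotation, it was 25.1% against 22.5%. By the deposited positions the difference of 3.29 percentage points was 0.321 without dermal A and -5.53 when weighted by reads. In epidermal A, B and C the convergent share was 42.6, 44.3 and 37.5% and the single-version share 46.7, 46.8 and 36.4%. The direction of the difference thus varied among the epidermal libraries. Over all libraries pooled, combinations with 1, 2, 3 and 4 or more versions had a mean of 2.92, 2.34, 2.02 and 1.78 inserted bases, the last from 20 combinations.

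The mean CDR3 length was 13.3 ± 0.352 amino acids (SD, n = 9) in convergent and 13.6 ± 0.375 in single-version clonotypes. The difference of -0.320 had adjusted p = 0.0781 by the exact permutation test and was negative in 7 of 9 libraries. It ranged from -0.852 in dermal A to 0.0509 in epidermal B. It was -0.118 when weighted by reads and -0.190 in the 8 skin libraries, and -0.515 with at least 2 reads per clonotype, where it passed the threshold. Convergent CDR3s spanned 9 to 19 amino acids and single-version ones 4 to 21.

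**Figure D4:**
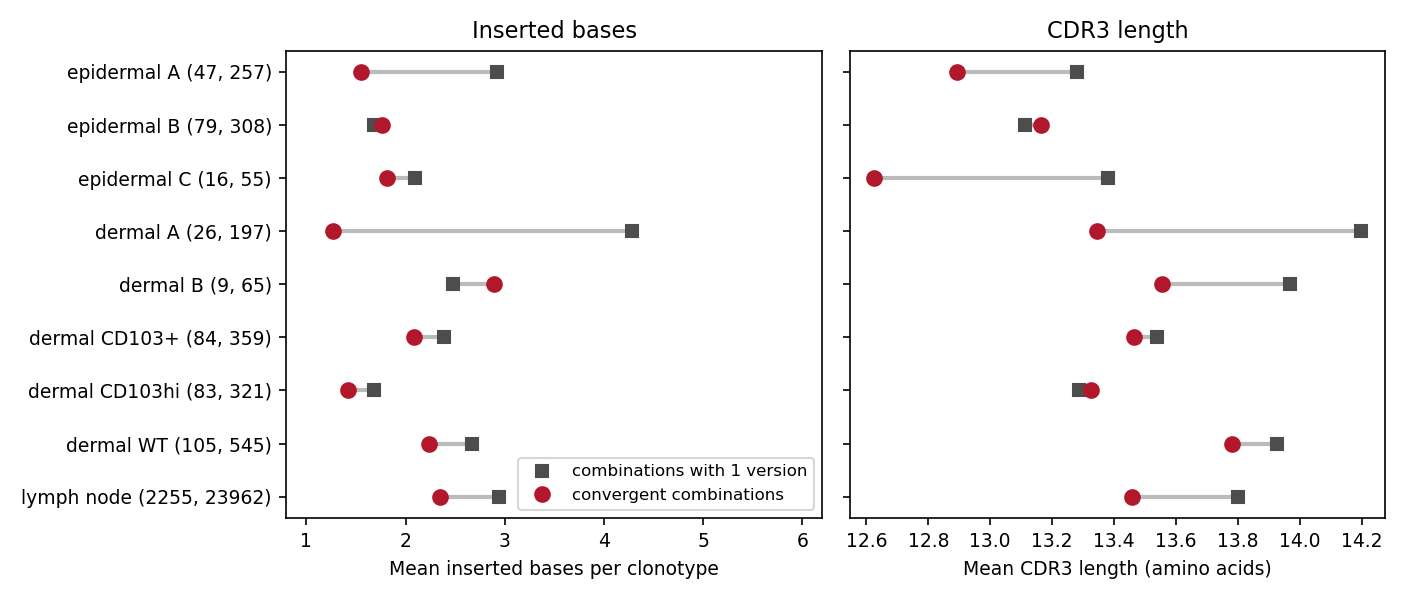
Mean inserted bases per clonotype (left) and mean CDR3 length in amino acids (right) in each library, for convergent combinations (circles) and combinations with 1 version (squares), with the numbers of clonotypes in brackets. Circles lie to the left of squares in 7 of 9 libraries in both panels.

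Clone size overlapped widely between the classes. The mean log2 reads per clonotype was 3.84 ± 1.27 (SD, n = 9) in convergent and 3.42 ± 1.4 in single-version clonotypes, a difference of 0.41 that was positive in 7 of 9 libraries, with adjusted p = 0.177 by the exact permutation test. With at least 2 reads per clonotype the direction turned, to -0.26. A clonotype with more reads can more easily be listed beside a second version, so reads and membership are not independent under the rule. The part of this in the difference was not tested. The difference was 1.4, 0.73 and 1.21 in epidermal A, B and C, and -0.98 in dermal B and -0.22 in dermal WT. Members took between 7.49% of reads in dermal B and 27.2% in epidermal C, and 9.56% in the lymph node. The largest clone was a single-version one in each of the 9 libraries, for example 9570 reads against 5254 in epidermal C.

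TRBV13-2 was the most frequent V segment of the members, with 206 of 1251 combinations (16.5%, against 9.74% of those with 1 version). TRBV13-3 followed with 139 and TRBV1 with 127. By the same exact test over 23 TRBV segments, 0 passed (0% called), and 7 had an unadjusted p under 0.05 (30.4%). For TRBV13-2 the mean share of clonotypes was 18.6% in convergent and 13% in single-version ones, higher in 7 of 9 libraries, with adjusted p = 0.0898 by the exact permutation test. This direction turned when the V segment was ignored in the combination (11.9% against 14.7%, higher in 2 of 9). In that setting the same CDR3 under different V segments also counted, so its members are a different set. With at least 2 reads the shares were 14.8 and 14.1% (higher in 4 of 9). TRBV13-3 had 10.5 and 13.9% (higher in 3 of 9) and TRBV1 10.7 and 6.55% (higher in 6 of 9). The lowest adjusted p, 0.0719 by that exact test, was shared by TRBV19, TRBV15, TRBV14, TRBV31 and TRBV16. TRBV19, which was named after its values were seen, had 1.85% of convergent and 7.42% of single-version clonotypes and was lower in 9 of 9 libraries, and 5 libraries held no convergent TRBV19 clonotype. When only junction differences counted, 4 segments passed. TRBV16 was higher in convergent clonotypes (13.4% against 6.24%, 9 of 9 libraries, adjusted p = 0.0449 by the exact permutation test). TRBV19, TRBV15 and TRBV26 were lower. TRBV26 had 0.0778 against 2.61% there, but 2.88 against 2.61% when all differences counted. Dermal A, dermal B and epidermal C had 26, 9 and 16 convergent clonotypes even with all differences counted. A rare segment can easily be absent there, so the lower values, those of TRBV19 included, rest in part on few clonotypes. TRBV13-1 and TRBV13-3 have the same germline CDR3 part, so the choice between them rests on bases outside the CDR3.

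Among the J segments, TRBJ1-5 had a lower share in convergent clonotypes. It was the only 1 of 11 that passed (9.09% called), and 3 of 11 had an unadjusted p under 0.05 (27.3%). Its share was 0.647% of convergent and 2.83% of single-version clonotypes, lower in 9 of 9 libraries, with adjusted p = 0.0430 by the exact permutation test. Convergent TRBJ1-5 clonotypes were absent from 6 of the 9 libraries, which held between 1.82 and 4.18% among single-version clonotypes. They made up 2.41% in CD103hi, 2.13% in epidermal A and 1.29% in the lymph node, against 4.36, 2.72 and 2.59%. In dermal A, dermal B and epidermal C, with 26, 9 and 16 convergent clonotypes, the single-version share would give 0.528, 0.277 and 0.291 such clonotypes, so a lower value was close to fixed there and the call rests in part on these libraries. Only 16 members used TRBJ1-5, and the smallest p of the test is 0.0039 before adjustment. TRBJ1-5 was also the rarest of the 11, with 716 clonotypes, and 2.32% of its combinations were convergent. For TRBJ2-7, the most frequent with 5336, the share was 5.37%, and for TRBJ1-1, with 3180, it was 5.43%. The rule needs a second version with the same V and J segment, so a rarer segment offers fewer chances of one. This holds for V segments too, and its part in the calls was not tested. The call did not hold with junction differences only (adjusted p = 0.215 by the exact test), nor with at least 2 reads per clonotype, with smaller versions 1 base from a larger one removed, in skin libraries only, or with the V segment ignored (-0.70 percentage points, adjusted p = 0.597 by the exact test). It did not hold either without the lymph node (adjusted p = 0.0859 by the exact test). With 8 libraries that is the lowest adjusted value a lone segment can reach, and it was also the value without dermal B, dermal WT, CD103+, CD103hi, epidermal A or epidermal C. Without dermal A or epidermal B, 2 segments passed. TRBJ1-5 lies on chromosome 6 from 41535084 to 41535133 (GRCm38).

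TRBJ2-7 was the most frequent J segment of the members (267, or 21.3%), followed by TRBJ2-5 (176) and TRBJ2-1 (164). Its mean share was 27.0% of convergent and 18.4% of single-version clonotypes, higher in 8 of 9 libraries, with adjusted p = 0.143 by the exact permutation test. The exception was dermal A, with 11.5% against 22.8%, and the widest gap was in epidermal C, with 43.8% against 18.2%. TRBJ2-5 had 10.4 and 12.3% and TRBJ2-1 13.2 and 13.2%, neither past the threshold.

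**Figure D5:**
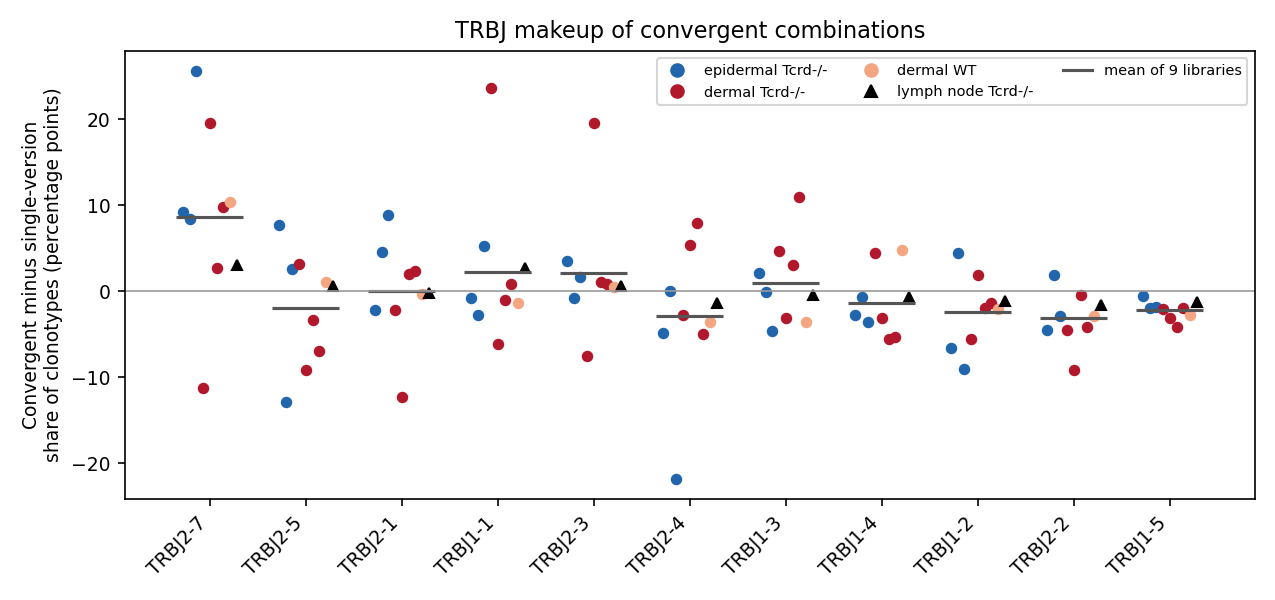
Difference in the share of clonotypes (percentage points) between convergent and single-version combinations for each of 11 TRBJ segments, with 1 point per library and the mean of 9 libraries as a line. TRBJ1-5 lies below 0 in all 9 libraries and TRBJ2-7 above 0 in 8.

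Convergent combinations made up a larger share of each epidermal library than of either bulk dermal library. This share counts the versions that chose the members, so it is given without a test. The share of combinations that were convergent was 12, 14 and 19.1% in epidermal A, B and C, and 9.63 and 9.72% in dermal A and B, and the groups did not overlap. The means were 15.0% ± 3.68 (SD, n = 3) and 9.68% ± 0.0631 (SD, n = 2). Without epidermal C the difference of 5.35 percentage points was 3.30. The dermal SD rests on a close pair of values, whose exact 95% intervals were 6.06 to 14.3% and 4.0 to 19%. Those of epidermal A, B and C were 8.49 to 16.3%, 10.5 to 18.0% and 10.6 to 30.5%, and each overlapped both dermal intervals. Within the library set of the A libraries the shares were 12 and 9.63%, and within that of epidermal C and dermal B 19.1 and 9.72%. No bulk dermal library belonged to the set of epidermal B. The other dermal libraries had 14.1% (CD103+) and 13.5% (CD103hi), both above epidermal A, and 10.9% (dermal WT). The lymph node had 4.43%. Without smaller versions 1 base from a larger one, the epidermal and dermal shares differed by 3.58 percentage points. With junction differences only, they differed by 1.73 percentage points. In neither of these settings were the epidermal and dermal libraries fully separate.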

How the data were processed

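Receptor transcripts were measured in 9 TRB libraries and 1 TRG library, each 1 pool of sorted cells. Per the file headers, the deposited tables hold a read count per clonotype and, as a second value, the authors' fraction of the library's reads, beside the CDR3, its segments and the segment positions. Which aligner, caller, error correction and build the authors used is not given in the sources used here. Only the counts were analysed.

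Of 29481 TRB clonotypes, 708 (2.40%) had a CDR3 that did not begin with cysteine and end with phenylalanine and were left out. Inserted bases were the CDR3 bases between the deposited V, D and J positions. The coding ends of all 22 TRBV and 11 TRBJ segments used by members were found in the mouse annotation (GENCODE, GRCm38), which also gave the germline bases and coordinates printed.

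Analysis used Python 3.11.15, pandas 2.3.3, numpy 2.4.6 and scipy 1.17.1. Segments needed at least 10 clonotypes to be tested, and each library at least 3 convergent clonotypes. The sign-flip test over 9 libraries was checked on simulated data, drawn independently per library with raised TRBJ shares or a shift in length. That check does not cover members pooled over libraries or a lower share of a rare segment. Library sets are the 3 styles of library names in the labels. The combinations with the most versions overall (6) and in skin (6), the largest member of each of the 8 skin libraries, the 5 found in the most libraries, the 3 most frequent V and J segments and every segment past the threshold were named. The members and lists were chosen with earlier results of these data known. Alternatives were a minimum of 2 reads, removal of smaller versions 1 base from a version with 10 times more reads, removal of trace clonotypes (under 1% of the share in another library of the set), skin libraries only, V segment ignored, weighting by reads, adding the CD103 sorts to the dermal group, and leaving out each library. Junction differences only and reference coding ends were added after seeing the data.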

Additional observations from a re-analysis of the deposited data

Results flagged for a closer look

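The γ chain library of wild-type epidermal γδ T cells, which entered no comparison of β chains, also held convergent combinations. Of its 55 combinations of V segment, J segment and amino acid CDR3, 4 had 2 or more nucleotide versions (7.27%). The largest clonotype, with 162324 reads, was present in 1 version only. The smaller version had 1 read in 3 of these combinations, and in the remaining one it had 154 reads beside 677 of the larger.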

How the results depend on the processing

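With at least 2 reads per clonotype, 358 combinations were convergent, 315 of them within 1 library, 49 in lymph node and skin and 8 at several skin sites. The difference in log2 reads was then -0.26 in place of 0.41, the difference in CDR3 length of -0.515 passed the threshold, and 0 J segments did. In skin libraries only, 152 combinations were convergent, 135 within 1 library, and 0 J segments passed. Ignoring the V segment gave 2155 combinations, 1999 within 1 library and 271 in lymph node and skin. All 4 measures then passed, at -1.05 inserted bases, 12.5 percentage points without inserted bases, -0.453 amino acids and 0.77 log2 reads, as did 2 V segments (TRBV16 and TRBV19) and 2 J segments (TRBJ2-7 and TRBJ2-2, but not TRBJ1-5). With junction differences only there were 832 combinations, 758 within 1 library and 21 at several skin sites, and 4 V and 0 J segments passed. Without trace clonotypes 19 lay at several skin sites. Without smaller versions 1 base from a larger one, 0 J segments passed. Weighted by reads, the difference in clonotypes without inserted bases was -5.53 percentage points. By reference coding ends the difference of -0.727 inserted bases passed the threshold. Leaving out 1 library, J segments past the threshold numbered 0 to 2 and V segments 0. The differences then ranged from -0.771 to -0.343 inserted bases, from -0.366 to -0.253 amino acids, from 0.321 to 4.62 percentage points without inserted bases and from 0.29 to 0.59 log2 reads, and the epidermal and dermal shares differed by 3.30 to 6.86 percentage points. Beyond fewer clonotypes or libraries in a setting, the cause of these shifts was not tested.

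The replicate letters A and B are shared by epidermal and dermal libraries. The A libraries also share a library set and the B libraries do not, and deviations of same-lettered libraries correlated at 0.0354 and 0.000334. With the letters as a replicate block the difference in convergent share was 3.30 percentage points. The CDR3 lengths and inserted bases of small libraries rest on as few as 9 convergent clonotypes, and versions seen once cannot be told from trace reads at this depth.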
